A study of Mus musculus with 4 samples.

Results

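Scn4a, Scn7a, Scn10a, Scn4b, Hcn2 and Hcn4 encode subunits of voltage-gated sodium channels and of the hyperpolarization-activated pacemaker channels. They were taken by gene symbol from the normalized counts of 4 mouse heart libraries, so 6 of 23337 gene symbols are described here, and all 6 had reads in every library. The libraries came from PIMTfl/fl mice, the controls, and from csPIMT-/- mice, which lack PIMT (gene Tgs1) in cardiomyocytes, at 2 and at 6 months of age. All mice were C57BL6/J and untreated, and both genotypes carry PIMT alleles flanked by loxP sites. In csPIMT-/- mice Cre recombinase is in addition driven by the α-MyHC promoter, which is active in cardiomyocytes, so PIMT remains in the other cells of the heart. Each library was made from the pooled RNA of 5 hearts of male and female mice. With 1 library in each of the 4 groups, no difference between groups at 1 age has a replicate check. The 95% intervals given below cover counting error only, and not the variation between mice.

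Voltage-gated sodium channels open when the membrane depolarizes and carry the inward current of the action potential upstroke. Their alpha subunit forms the pore, and the beta subunits are small membrane proteins that adjust gating and bring the channel to the cell surface. Scn4a encodes the alpha subunit of skeletal muscle and Scn10a one best known from sensory neurons and the cardiac conduction system. Scn7a encodes an atypical, sodium-sensing member of the alpha family. HCN channels open on hyperpolarization and carry the pacemaker current. Hcn4 is the main pacemaker channel of the sinoatrial node, and Hcn2 is found in working myocardium and the conduction system.

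The libraries held 29823073 to 40705783 reads, recovered from the deposited normalized counts, in which 1 read was worth 0.865 to 1.23. Tgs1 had normalized counts of 580 (2 months) and 816 (6 months) in the controls and 160.3 and 162 in csPIMT-/- hearts. It was lower in both csPIMT-/- libraries, with ratios of 0.271 (95% interval 0.223 to 0.327) and 0.194 (0.162 to 0.230). Markers of cardiomyocytes were present throughout, and 0 of 7 were past 2-fold between genotypes at either age. Atrial markers set the libraries apart: without Nppa, which working myocardium also makes under load, the other 6 summed to 3589 in the 2-month control, 56764 in the 6-month control, 139194 in the 2-month csPIMT-/- library and 31952 in the 6-month csPIMT-/- library. The lung markers summed to 1160 in the 2-month csPIMT-/- library and to at most 17.7 in the others. Of the sum in that library 979 were from Bpifa1, 139 from Scgb1a1, 25.9 from Sftpc, 9.86 from Sftpb and 6.16 from Sftpa1. That library was also the highest for the fat markers Ucp1, Elovl3 and Adipoq, which summed to 3625 there and to 15.6, 546 and 315 in the 2-month control, the 6-month control and the 6-month csPIMT-/- library. The ratio of a gene also followed the GC content of its transcript, and Spearman's rho between them was 0.58 (2 months) and 0.607 (6 months) over genes, which are not independent replicates. The part of these markers or of GC content in the results below was not tested, and the ratios of the 6 genes are also given with the 2-month and 6-month controls exchanged and with the GC trend subtracted. Each ratio was scaled on the pair of libraries it compares and so differs slightly from the quotient of the printed counts.

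On GRCm38, Scn4a lies at chr11:106318592-106353288, Scn7a at chr2:66673425-66784914 and Scn10a at chr9:119608456-119719322, all on the minus strand. Scn4b (chr9:45138395-45154152), Hcn2 (chr10:79716634-79736108) and Hcn4 (chr9:58823412-58863175) are on the plus strand. In GENCODE M21 no exon of the 6 genes overlaps an exon of another gene.

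The normalized counts per kilobase of transcript allow the 6 genes to be compared with each other. On this scale Hcn2 had the highest level in 3 of the 4 libraries, at 1114 (2 months) and 448 (6 months) in controls and at 1373 and 579 in csPIMT-/- hearts. Scn7a had 342, 470, 279.2 and 542 in the same order. It exceeded Hcn2 in the 6-month control and was below Hcn2, Scn4b and Scn4a in the 2-month csPIMT-/- library. Scn4a had 125, 189, 324 and 102. Hcn4 (25.9, 35.1, 26.2 and 5.95) and Scn10a, with its highest value of 26.5 in the 2-month csPIMT-/- library, were low. Scn4b changed place between the genotypes, with 88.6 in the 6-month control and 425 and 237 in the csPIMT-/- libraries. Per kilobase, Scn4b was below Scn4a in both controls and above it in both csPIMT-/- libraries. When the 4 libraries were ordered by the normalized count of each gene, neighbours in that order differed beyond counting error except for Scn10a in the 6-month libraries (1.16, 0.786 to 1.72) and Hcn4 in the 2-month libraries (1.01, 0.802 to 1.27).

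**Figure D1:**
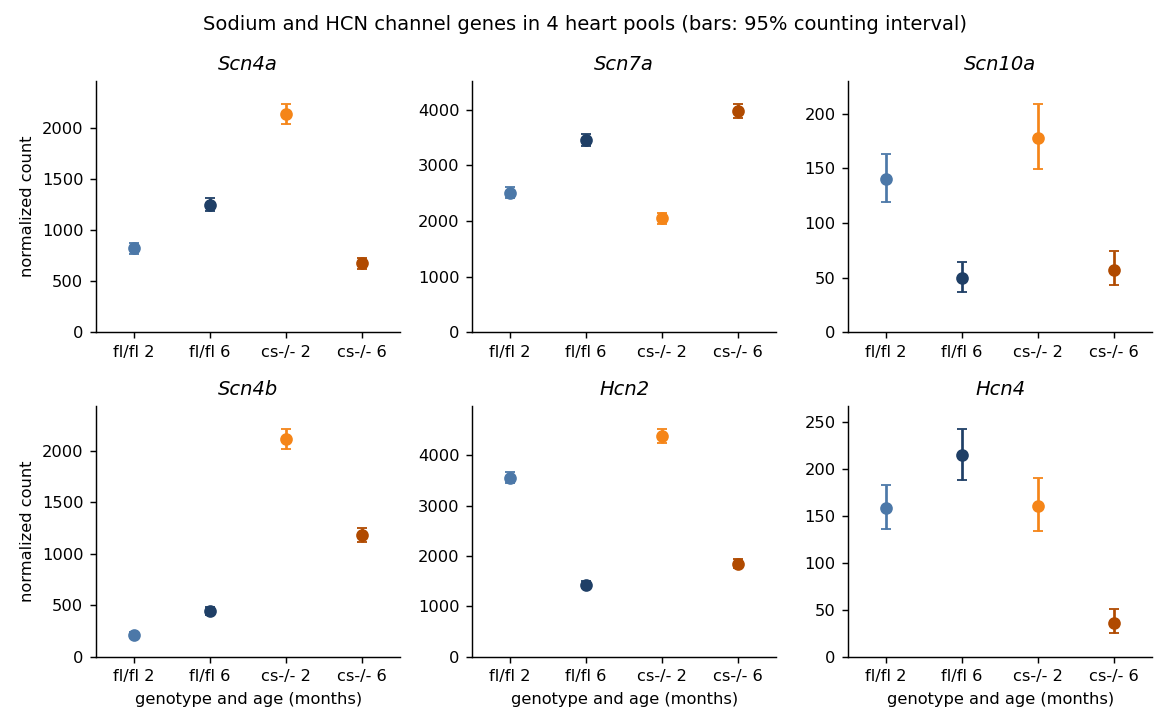
Normalized count of each of the 6 genes in each of the 4 libraries (points; vertical axes from 0; error bars are 95% counting intervals; fl/fl is PIMTfl/fl and cs-/- is csPIMT-/-). Scn4b was higher in both csPIMT-/- libraries than in both controls, Hcn2 and Scn10a were lower at 6 months in both genotypes, and Hcn4 was lowest in the 6-month csPIMT-/- library.

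Comparing genotypes at each age, csPIMT-/- hearts had 2 of the 6 genes more than 2-fold higher at 2 months, Scn4a and Scn4b, and 0 lower. Across all genes tested at this age, 16.4% were above 2-fold and 23% were below 0.5. At 6 months 1 gene was higher, Scn4b, and 1 was lower, Hcn4, where 16% of all genes were higher and 25.7% lower. The median log2 ratio of the 6 genes was 0.293 at 2 months (a ratio of 1.22) and 0.173 at 6 months (1.13). Over all genes the median log2 ratio was -0.03 at both ages.

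Scn4b encodes the beta4 subunit, which is linked to the pore subunit through a disulfide bond. Its normalized counts were 212 (2 months) and 441 (6 months) in controls and 2116 and 1182 in csPIMT-/- hearts. Both csPIMT-/- libraries lay above both controls, and the 2 groups did not overlap, as for 34.6% of all genes with at least 10 reads in 1 library. The ratio was 9.78 (8.55 to 11.2) at 2 months and 2.61 (2.35 to 2.90) at 6 months. Set against the control of the other age, the ratios were 4.64 and 5.46, so Scn4b was past 2-fold in each pairing of a csPIMT-/- library with a control. Of all genes tested at both ages, 7.12% were above 2-fold and 16.6% below 0.5 at both. After subtraction of the GC trend the ratios of Scn4b were 6.91 and 1.81, and the 6-month value no longer passed 2-fold. Between ages Scn4b went in opposite directions, with a 6-month to 2-month ratio of 1.99 in controls and 0.543 in csPIMT-/- hearts. Of the atrial markers, 7 of 7 were more than 2-fold higher in csPIMT-/- hearts at 2 months and 5 of 7 were lower at 6 months. Their part in the Scn4b values was not tested. In whole-heart RNA, fewer cells of a type and less RNA per cell cannot be told apart.

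In the fit over all 4 libraries, with genotype and age as terms, 1 of the 6 genes passed, Scn4b, which rose (limma log2 difference 2.38, SE 0.484, adjusted p = 0.0230). In this fit 12.1% of 14935 genes were called higher and 17.9% lower. edgeR (adjusted p = 0.0292), which called 10.8% of genes higher and 16.8% lower, and DESeq2 (adjusted p = 2.23e-06), which called 14.7% higher and 20% lower, also called it. The call was lost without the mean trend of the variance (limma adjusted p = 0.0881) and after subtraction of the GC trend (log2 difference 1.83, limma adjusted p = 0.134). Neither alternative called any gene, and 1 residual degree of freedom underlies all of these fits. Tgs1, the gene deleted in cardiomyocytes of csPIMT-/- mice, was called in the fit over all 4 libraries (limma log2 difference -2.08, adjusted p = 0.0147). Its call was lost in both alternatives as well (limma adjusted p = 0.0669 without the variance trend and 0.165 with the GC trend subtracted). With the GC trend subtracted its log2 difference was -0.86, so this subtraction also made the difference of the deleted gene smaller.

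**Figure D2:**
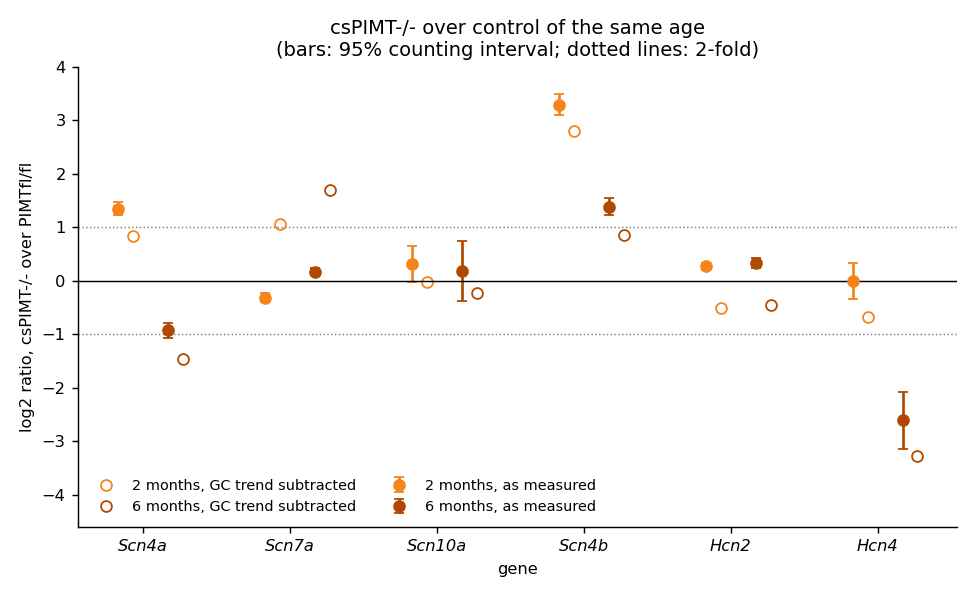
Ratio of csPIMT-/- over PIMTfl/fl for the 6 genes at 2 months and 6 months on a log2 axis, with 95% counting intervals, beside the ratio after subtraction of the GC trend (open circles). Scn4b stayed above 1 and Hcn4 at 6 months below 1 in both, and Hcn2 (both ages), Scn7a (2 months) and Scn10a lay on the other side of 1 once the GC trend was subtracted.

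Scn4a, the alpha subunit of skeletal muscle, had normalized counts of 823 (2 months) and 1249 (6 months) in controls and 2137 and 674 in csPIMT-/- hearts. The csPIMT-/- libraries were the highest and the lowest of the 4. The ratio was 2.55 (2.35 to 2.76) at 2 months and 0.526 (0.478 to 0.577) at 6 months. Subtracting the GC trend left 1.79 and 0.363, and with the controls exchanged the ratios were 1.65 and 0.803, so that past 2-fold stood only 1 of these 4 values, the lower 6-month ratio of 0.363. Over both ages Scn4a did not pass (limma log2 difference 0.25, adjusted p = 0.741). Without Acta1, which heart also expresses, the other 8 skeletal muscle markers summed to 700.0 and 202 in the controls and 345 and 553 in the csPIMT-/- libraries, and Myod1 had at most 1.76 normalized counts. Of these markers, 3 were past 2-fold lower at 2 months and 6 past 2-fold higher at 6 months. Acta1 itself was at 22823 and 24275 in the controls and 122146 and 94112 in csPIMT-/- hearts.

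Scn7a had normalized counts of 2508 and 3448 in the controls and 2049 and 3974 in csPIMT-/- hearts, in the order of 2 and 6 months. Within each genotype the 6-month library was the higher one. The ratio of csPIMT-/- over control was 0.801 (0.754 to 0.851) at 2 months and 1.12 (1.07 to 1.17) at 6 months, and over both ages no difference was called (limma log2 difference -0.03, adjusted p = 0.920). With a GC content of 40.2%, the lowest of the 6 transcripts, Scn7a was the most affected by the GC trend, and subtracting it gave ratios of 2.08 and 3.25. With the controls exchanged the ratios were 0.575 and 1.55. Scn7a is expressed in glia and in other non-neuronal cells, and the Schwann cell markers summed to between 890 and 1108 in the 4 libraries.

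Scn10a had normalized counts of 140.2 and 49.3 in the controls and 178 and 57.2 in csPIMT-/- hearts, from 162, 56, 144 and 55 reads. The 2-month libraries were the higher ones in both genotypes. The ratio of csPIMT-/- over control was 1.24 (0.985 to 1.56) at 2 months, at the edge of counting error, since on the deposited scale of the 4 libraries it was 1.27 (1.005 to 1.595). At 6 months it was within counting error, at 1.13 (0.766 to 1.67). With the controls exchanged the ratios were 3.49 and 0.400, past 2-fold in opposite directions. The limma fit gave a log2 difference of 0.29 (adjusted p = 0.648). The 8 neuronal markers summed to 924 and 741 in the controls and 1896 and 4405 in csPIMT-/- hearts. Of the last sum 3798 were from Uchl1, and the other 7 summed to 409, 325, 953 and 607. Dbh, of sympathetic neurons, had 375 and 229.5 in controls and 340.3 and 155 in csPIMT-/- hearts, lower at 6 months in both. Other neuronal markers went the other way. Of 4 tested between ages in controls 0 were past 2-fold lower and 2 were higher, Prph and Tubb3. Of 5 tested in csPIMT-/- hearts 2 were lower, Prph and Dbh, and 2 were higher, Th and Uchl1. Chat and Snap25 were under 10 reads in every library.

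Hcn2 had normalized counts of 3559 and 1430.0 in the controls of 2 and 6 months and 4385 and 1849.8 in csPIMT-/- hearts. Both genotypes were lower at 6 months. Within an age the csPIMT-/- library was the higher one, by 1.21-fold (1.15 to 1.26) and 1.26-fold (1.18 to 1.35), and the fit did not call this difference (limma log2 difference 0.35, adjusted p = 0.243). Subtraction of the GC trend turned the direction, to ratios of 0.697 and 0.726. With the controls exchanged the ratios were 2.97 and 0.509, on opposite sides of 1. The Hcn2 transcript had the highest GC content of the 6, at 65.4%.

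Hcn4 had normalized counts of 158 and 215 in the controls, 160.3 in the 2-month and 36.4 in the 6-month csPIMT-/- library. The 6-month csPIMT-/- library, with 35 reads, stood below the other 3, which had 130 to 244. At 2 months the genotypes were within counting error (0.992, 0.786 to 1.25), while the ratio was 0.625 with the GC trend subtracted and 0.722 against the 6-month control. At 6 months the ratio was 0.165 (0.113 to 0.236), which remained past 2-fold against the 2-month control (0.225) and with the GC trend subtracted (0.103). Over both ages the difference was not called (limma log2 difference -1.25, SE 0.689, adjusted p = 0.214). The 8 nodal markers, among which Hcn4 was not counted, summed to 2860.1 in the 6-month control and 2250.3 in the 6-month csPIMT-/- library. Of 7 tested 1 was more than 2-fold lower. Isl1 had 0 reads in the 6-month csPIMT-/- library and also in the 2-month control, and at most 7 in any library. Per kilobase, the level of Hcn2 over that of Hcn4 was 43.0, 12.8, 52.4 and 97.3 in the 2- and 6-month controls and the 2- and 6-month csPIMT-/- libraries.

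Promoters are printed for Scn4b, which differed between genotypes, Hcn2, which differed between ages, and Hcn4, which was lowest in the 6-month csPIMT-/- library. Scn10a, whose 6-month to 2-month ratios were below those of Hcn2 in both genotypes, is not printed. Each printed promoter is the 250 bases before the start annotated in the promoter table (RefSeq, GRCm38.p6, all on the plus strand, at chr9:45138374-45138623, chr10:79716384-79716633 and chr9:58822699-58822948). This start differs from the GENCODE gene bounds given above: 229 bases of the Scn4b window lie inside the GENCODE gene, and 463 bases separate the Hcn4 window from it. Capitals mark every match on either strand to the letters AGATAA of the GATA factor motif, GGGCGG of the GC box, TATAAA of the TATA box, AGGTGT of the T-box motif and TTCAGCACC as part of the longer REST motif, and to the MEF2 motif (CTA and TAG with 4 bases between).
Scn4b: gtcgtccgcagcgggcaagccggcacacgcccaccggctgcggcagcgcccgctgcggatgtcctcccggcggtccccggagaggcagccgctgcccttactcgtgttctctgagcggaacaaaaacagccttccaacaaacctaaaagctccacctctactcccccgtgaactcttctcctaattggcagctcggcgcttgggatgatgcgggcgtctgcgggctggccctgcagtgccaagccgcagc
Hcn2: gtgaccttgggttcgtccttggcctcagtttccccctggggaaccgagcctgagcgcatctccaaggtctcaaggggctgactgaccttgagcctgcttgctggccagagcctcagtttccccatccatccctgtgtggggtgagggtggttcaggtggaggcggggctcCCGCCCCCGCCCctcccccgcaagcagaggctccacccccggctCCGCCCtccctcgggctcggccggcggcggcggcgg
Hcn4: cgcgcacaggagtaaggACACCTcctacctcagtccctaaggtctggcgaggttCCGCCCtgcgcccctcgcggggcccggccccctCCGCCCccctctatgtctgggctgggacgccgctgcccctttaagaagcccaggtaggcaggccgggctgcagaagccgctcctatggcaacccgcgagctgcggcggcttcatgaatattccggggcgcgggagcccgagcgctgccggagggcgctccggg
The Hcn2 window held 3 GC boxes, and Hcn4 held 2 with 1 T-box motif. Scn4b had 0 matches to any of the 6 motifs, which says only that these letters do not occur in the window. Of 27025 promoter windows of this length, 32.9% held a GC box, 12.0% a T-box motif, 10.3% the GATA, 3.23% the MEF2, 12.97% the TATA box and 0.285% the REST letters. GC content was 66%, 70.4% and 71.2%, against a median of 52% over these promoters.

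Between ages, the 6-month library was below 0.5 of the 2-month library for 2 of the 6 genes in controls, Scn10a and Hcn2, and for 4 in csPIMT-/- hearts, where Scn4a and Hcn4 joined them. Among all genes, 5.21% (control) and 8.73% (csPIMT-/-) were below 0.5, and 8.15% and 9.17% were above 2, where 0 of the 6 genes stood. The 6-month to 2-month ratio of Scn10a was 0.336 (0.243 to 0.458) in controls and 0.313 (0.225 to 0.430) in csPIMT-/- hearts. Hcn2 had ratios of 0.384 (0.362 to 0.407) and 0.410 (0.387 to 0.434). Of all genes tested in both genotypes, 1.61% were below 0.5 in both. In csPIMT-/- hearts Scn4a (0.307) and Hcn4 (0.221) were lower at 6 months, while in controls their ratios were 1.45 and 1.29, so their age ratios pointed in opposite directions in the 2 genotypes. An added fit of age over both genotypes did not call Hcn2 with limma (log2 difference -1.31, adjusted p = 0.756) or edgeR (adjusted p = 0.783), and DESeq2 called it (adjusted p = 0.0104). limma called 0 of 14935 genes for age, with 336 lower and 610 higher at an unadjusted p under 0.05, while edgeR called 0 and DESeq2 called 0.248% lower and 0.402% higher.

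**Figure D3:**
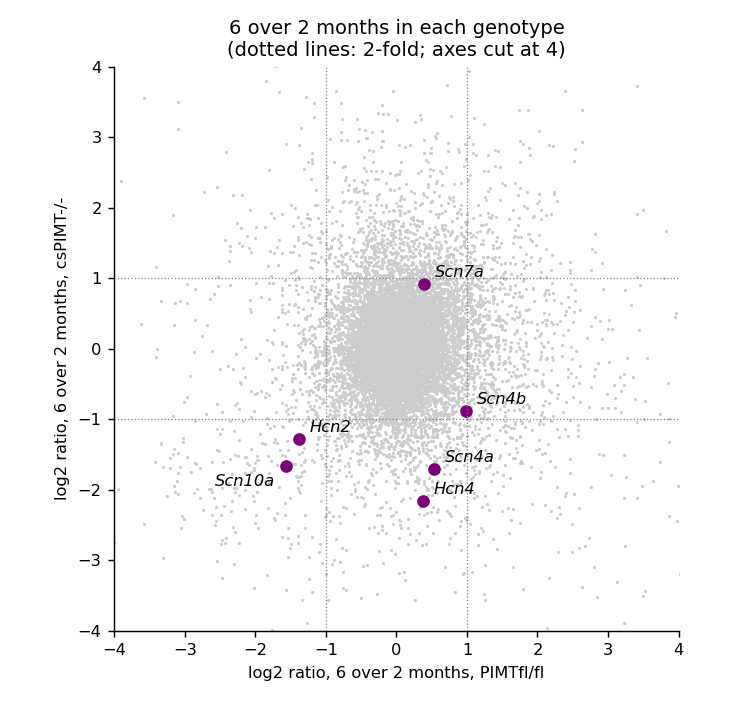
Log2 ratio of 6 months over 2 months in PIMTfl/fl (horizontal) and csPIMT-/- hearts (vertical) for the 6 genes (named points) and all genes tested in both (grey), axes cut at 4 in each direction, dotted lines at 2-fold. Scn10a and Hcn2 were below 0.5 in both genotypes, and Scn4a, Scn4b and Hcn4 were above 1 in controls and below 1 in csPIMT-/- hearts.

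Of 9 other sodium channel subunits and HCN channels and 16 partner genes, 20 entered the fit over all 4 libraries, and limma called 2 lower, both partner genes, and 0 higher, where 17.9% and 12.1% of all genes were called. edgeR gave the same counts, and DESeq2 called 3 lower and 0 higher. Among the other alpha subunits, Scn3a, which is best known from developing neurons, had 312 and 237 in controls and 45.6 and 219.5 in csPIMT-/- hearts. Its low value was that of the 2-month csPIMT-/- library, with ratios of 0.143 (0.0992 to 0.201) at 2 months and 0.901 (0.749 to 1.08) at 6 months. After subtraction of the GC trend they were 0.311 and 2.25, and the fit did not call it (limma log2 difference -1.42, adjusted p = 0.156). The beta subunit Scn3b had 126 and 58.0 in controls and 55.5 and 59.3 in csPIMT-/- hearts. The 2-month control was the high library, with ratios of 0.430 (0.301 to 0.605) and 0.995 (0.686 to 1.44), and the fit did not call it (limma log2 difference -0.56, adjusted p = 0.454).

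Ank2 encodes ankyrin-B and Dlg1 the scaffold SAP97, which both anchor membrane proteins, and both fell. Ank2 had 8091 and 10515 in controls and 4408 and 3061 in csPIMT-/- hearts, ratios of 0.534 and 0.284 (limma log2 difference -1.32, SE 0.285, adjusted p = 0.0259). Dlg1 had 2729 and 3612 against 1113 and 1758, with ratios of 0.400 and 0.474 (limma log2 difference -1.16, SE 0.214, adjusted p = 0.0193). Dlg1 ratios after GC subtraction were 0.739 and 1.002. Both calls were lost in limma without the variance trend (adjusted p = 0.0977 for Ank2 and 0.0809 for Dlg1) and with the GC trend subtracted (adjusted p = 0.113 and 0.577). Among HCN partners, Kctd3, the most abundant, had 1826 and 1154 in controls and 592 and 809 in csPIMT-/- hearts and was not called by limma (log2 difference -1.06, adjusted p = 0.0599) and was the third gene called lower by DESeq2 (adjusted p = 0.02004). Kcne2 had 0 reads in all 4 libraries, which allows up to 3.19 to 4.55 normalized counts.

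The lists gave the following counts past 2-fold, against 23% of all genes lower and 16.4% higher at 2 months and 25.7% and 16% at 6 months. At 2 months, of 3 other alpha subunits tested 2 were lower, Scn3a and Scn8a, and 0 were higher. At 6 months, of 4 tested 2 were higher, Scn1a and Scn8a, each with at most 21 reads in any library. Of 2 other beta subunits 1 was lower at 2 months, Scn3b, and 1 was higher at 6 months, Scn2b, which had at most 48 reads. Hcn3 had at most 15 reads in any library. Of 11 sodium channel partners 2 were lower and 1 higher at 2 months, and 4 were lower and 0 higher at 6 months.

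**Figure D4:**
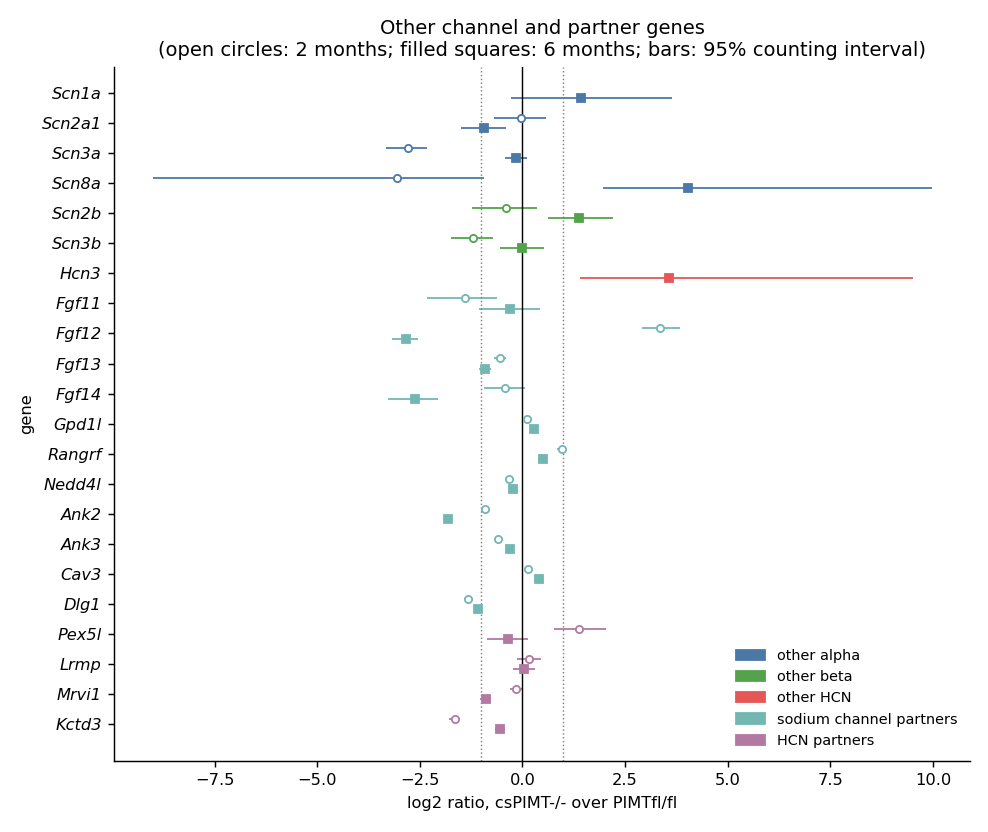
Log2 ratio of csPIMT-/- over PIMTfl/fl for other sodium channel and HCN subunits and for partner genes at 2 months (open circles) and 6 months (filled squares), with 95% counting intervals. Dlg1 was below 0.5 at both ages, and the widest intervals belonged to genes of few reads.

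**Figure D5:**
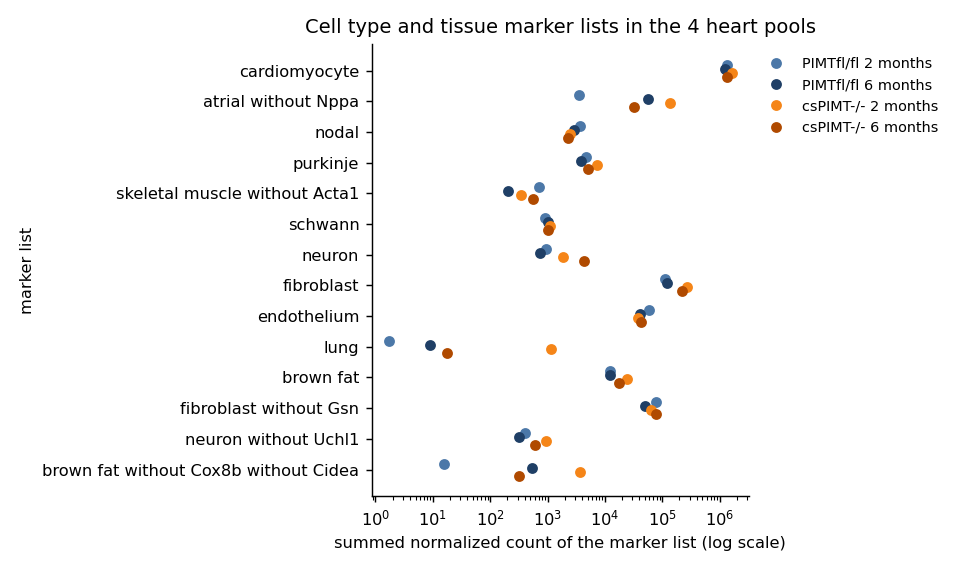
Summed normalized count (log axis) of the marker lists, whole or without the genes named, in the 4 libraries (1 point each). The atrial sum without Nppa was lowest in the 2-month control, at 3589, and highest in the 2-month csPIMT-/- library, at 139194.

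Other marker lists gave these sums in the order of 2- and 6-month controls and 2- and 6-month csPIMT-/- libraries. Purkinje cell markers summed to 4735, 3903, 7200.2 and 5170. Nkx2-5 alone gave 2084, 1519, 3612 and 3355 of these sums. The median csPIMT-/- over control ratio of the 5 Purkinje markers was 1.03 at 2 months and 0.704 at 6 months. Fibroblast markers summed to 113357, 119999, 267124 and 224749, and without Gsn, the most abundant of them in csPIMT-/- hearts, to 79472, 50948, 64016 and 76689. The endothelial markers summed to 57863, 41112, 37296 and 42089. The 5 brown fat markers summed to 12343, 12125, 24507 and 17327, most of it Cox8b and Cidea, which were abundant in every library. Of the rest, Ucp1 had 8.65, 93.2, 1766 and 12.5. The lists' part in the values of the 6 genes was not tested.

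Likeness of pattern was measured as the distance of log2 normalized counts, centred on each gene, over the 4 libraries and among 12822 genes. The pair closest to Scn4b was C2 (distance 0.289) and H2-Bl (0.361), and that closest to Hcn4 was Zc4h2 (0.209) and Wnt5a (0.214). Scn4a was closest to Rassf10 (0.226) and Itga8 (0.230), Scn7a to F2r (0.0922) and Rnf149 (0.133). Scn10a was closest to Ntn3 (0.0763) and Apob (0.225), and Hcn2 to Hist1h2bp (0.215) and Abhd1 (0.230). Such a distance over 4 libraries depends on the size of the differences between them and is a description only.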

How the data were processed

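RNA-seq was made from 4 pools of heart RNA, each of 5 mice. Per the labels and the study's methods, the authors trimmed and filtered reads, aligned them with STAR to mm10 (GRCm38), counted them per gene with htseq-count (HTSeq 0.6.1p1 in the submitters' processing notes) and normalized them with DESeq2. They deposited the normalized count signal, 1 value per gene symbol and library, and the 6-month csPIMT-/- column is headed as read counts but holds the same unit. Each value was divided by the smallest value above 0 to recover reads, and 100% of values came out whole within 0.001 reads. Depth was 29823073 to 40705783 reads, and the files give no batch. The 6 members and all lists were chosen with earlier results of these data known.

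Ratios compared 1 library with 1 library, scaled by median-of-ratios size factors of the pair, for genes with at least 10 reads in 1 of them, with 95% Clopper-Pearson intervals, and 2-fold counts carry no test. log2 ratios used 0.5 added reads, and for the GC trend a lowess curve (span 0.3) was fitted on transcript GC content, available for 98.8% of genes (GENCODE M21). The fit over all 4 libraries used limma 3.58.1 with a mean trend on log2(value + 1) after TMM scaling, genotype and age as terms, and Benjamini-Hochberg adjustment at 0.05. Its fold changes understate those of low genes. Alternatives were edgeR 4.0.16, which called 2508 genes lower and 1619 higher, DESeq2 1.42.0, no variance trend, no filter and other controls. The fits were tested on simulated data without a GC trend, so that test does not cover the trend seen here. Named genes were the 6 members, Tgs1, the most abundant gene of each list, genes with at least 100 reads past 2-fold in 1 direction at both ages, and the 2 genes nearest each member. Some genes of these lists are not reported here, and the lists were counted without them. Marker sums without single genes were chosen after seeing the data. Promoters are from RefSeq. An exact permutation of 2 against 2 libraries cannot reach 0.05, so none is given.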

Additional observations from a re-analysis of the deposited data

Results flagged for a closer look

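Ratios of csPIMT-/- over control that pointed in opposite directions at the 2 ages were found for 2 genes, and the fit over both ages called neither. Scn4a had a ratio of csPIMT-/- over control of 2.55 at 2 months and 0.526 at 6 months, and Scn7a of 0.801 and 1.12. With the GC trend subtracted the opposition was lost for Scn7a, whose ratios were 2.08 and 3.25, and remained for Scn4a, at 1.79 and 0.363. Each age has 1 library per genotype, so the difference between ages was not tested for either of them.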

How the results depend on the processing

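Mice could not be paired because the labels carry no replicate numbers and each group has 1 pooled library. The age term of the fits compares the genotypes within each age. Leaving out 1 library would leave no residual degrees of freedom, so it was not run. At 2 months 2 members were past 2-fold, all higher. There were 1 with both controls summed and 3 with the other control (Scn10a, Scn4b and Hcn2). With the GC trend subtracted there were again 2, but Scn7a (2.08) stood in place of Scn4a (1.79). With that subtraction 1 member was still higher at 6 months, Scn7a (3.25) in place of Scn4b (1.81). At 6 months the lower members numbered 1, and 2 with the GC trend subtracted (Scn4a and Hcn4) or with the other control (Scn10a and Hcn4). Between ages in controls, 1 member was higher after GC subtraction, against 0. The genotype fit called 1 member, Scn4b, and 0 without the variance trend or with the GC trend subtracted. Those 2 limma settings called 0 genes of all, against 3387 lower and 2547 higher, and 1829 lower and 2018 higher, at an unadjusted p under 0.05. DESeq2 called 2994 lower and 2201 higher, against 2668 and 1813 by limma with neither change. For age, a fit chosen after seeing the data, DESeq2 called 1 member, Hcn2, and limma 0. The direction of Dlg1 was turned at 6 months with GC subtraction (1.002). The cause was not tested. The low counts of Hcn4 and Scn10a limit the precision of their ratios.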

Other observations

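Cntn2, a marker of Purkinje fibres chosen after its values were seen, had normalized counts of 1012 and 317 in the controls of 2 and 6 months and 996 and 195 in csPIMT-/- hearts. Like Hcn2 and Scn10a, it was lower at 6 months in both genotypes. Of the 5 Purkinje markers tested it was the only 1 past 2-fold lower at 6 months in controls. In csPIMT-/- hearts 2 were, Gja5 and Cntn2, while Irx3, Etv1 and Nkx2-5 stayed within 2-fold between ages in both genotypes. Gja5, another gene of the conduction system and atria, had 555 and 1142 in controls and 1698 and 815 in csPIMT-/- hearts.

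Fgf12, which encodes a cytosolic partner of sodium channels and is also in the atrial marker list, had 40.7 and 717 in controls and 428 and 102 in csPIMT-/- hearts. Fgf14 had 84.8, 169.7, 64.1 and 28.1 in the same order. The lowest value of Fgf14 was that of the 6-month csPIMT-/- library, as for Hcn4.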
